A study of Danio rerio with 4 samples.

Results

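Of the 8 symbols or symbol starts that define pancreatic lipases, amylase, syncollin and pdia2, 5 had a row in the deposited table of 19924 features: cel.1, cel.2, amy2a, sycn.2 and pdia2. Their rows were found by symbol. pnlip, pla2g1b and sycn.1 were not analysed here. The series holds 4 RNA-seq libraries of zebrafish (Danio rerio) at 3 days post fertilization, 2 from fish in which cpa1 and cpa5 are both knocked out and 2 from siblings. All came from 1 pair of cpa1+/-cpa5+/- parents, so a sibling may carry 1 mutant copy of either gene, although the genotype label of the siblings reads WT. Heads went to genotyping and tails to RNA, and the labels do not say where the tail was cut, how many fish each library holds, or what the replicate numbers 3 and 4 stand for. P-values therefore rest on the spread between these 4 libraries alone, and that spread may be technical.

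Acinar cells of the exocrine pancreas make digestive enzymes, pack them in zymogen granules and release them into the gut. In zebrafish the enzyme genes are switched on before the larva first feeds. Carboxyl ester lipase, also called bile salt-activated lipase, splits cholesteryl esters, triglycerides and vitamin esters in the gut once bile salts are present. Alpha-amylase cuts starch into short sugars. Syncollin is a zymogen granule protein that acts in granule exocytosis in rodents. In mammals, protein disulfide isomerase A2 resides in the endoplasmic reticulum of acinar cells and forms disulfide bonds in new secretory proteins. The deposited annotation gives a carboxylesterase domain for cel.1 and cel.2, an alpha-amylase domain for amy2a, a syncollin domain for sycn.2 and a thioredoxin domain for pdia2.

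Total counts were 24769258 and 35343524 in knockout replicates 3 and 4, and 25623442 and 32248878 in sibling replicates 3 and 4. The targeted gene cpa5 had 19 and 15 counts in the knockout libraries, against 2079 and 397 counts in the sibling libraries. cpa1 itself was not analysed here. Pancreatic proteases were read in every library, with a summed level over 15 genes of 448 and 112 CPM (counts scaled to a common library size) in knockout replicates 3 and 4 and of 1254 and 136 CPM in sibling replicates 3 and 4. Acinar products were thus read in all 4 libraries. The libraries were split by replicate number in heat shock genes too. These summed to 286 and 2747 CPM in knockout replicates 3 and 4, against 366 and 2921 CPM in sibling replicates 3 and 4. The heart gene myl7 had 2 and 711 counts in the knockouts, against 18 and 611 counts in the siblings. The cardiomyocyte list that holds myl7 summed to 127 and 172 CPM in knockouts, against 172 and 159 CPM in siblings. Its most abundant gene, myh7, was lower in replicate 4, at 116 and 91.5 CPM in knockouts, against 153 and 79.3 CPM in siblings. Only 3 of 13 markers of eye and forebrain had a row (emx3, foxg1a and otx2b), and they summed to 8.15 to 10.3 CPM.

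**Figure D1:**
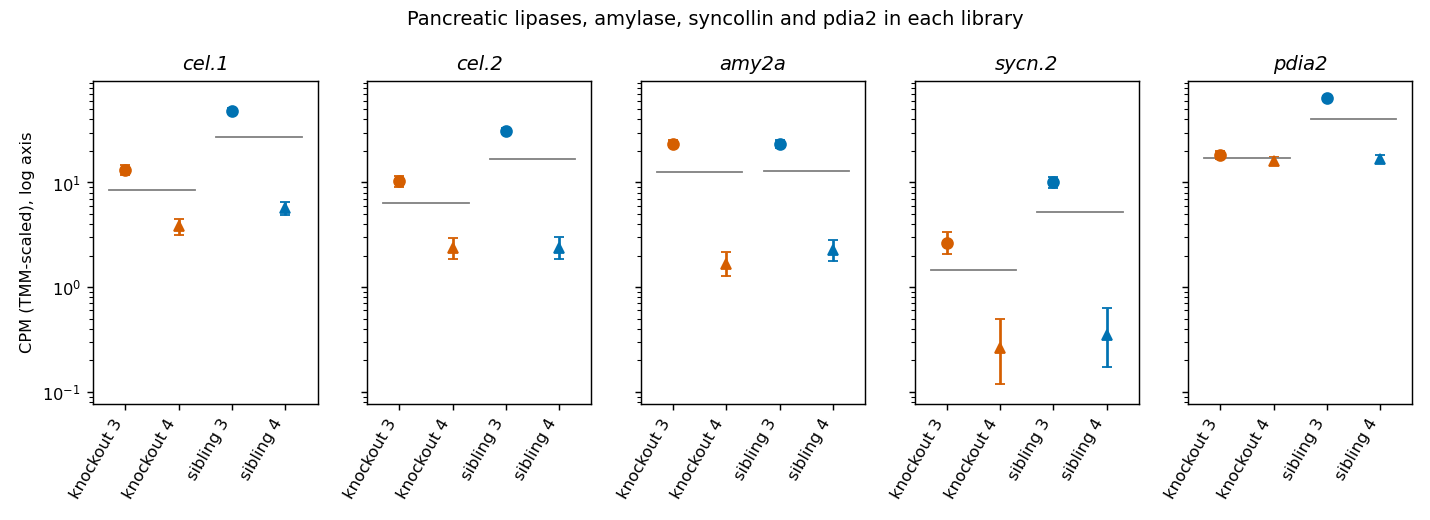
CPM of each gene (log axis) in the knockout libraries (orange) and the sibling libraries (blue), with circles for replicate 3 and triangles for replicate 4. Bars are exact 95% Poisson intervals, which cover counting error only, and grey lines are group means over 2 libraries. Sibling replicate 3 is highest for cel.1, cel.2, sycn.2 and pdia2, whereas for amy2a knockout replicate 3 at 23.6 CPM lies beside sibling replicate 3 at 23.4 CPM.

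Double knockouts were set against siblings, the contrast named by the labels, for the effect of losing both carboxypeptidases. None of the 5 genes passed the edgeR quasi-likelihood test (adjusted p = 1 for each), and neither did any other feature, at 0% of the 19924 tested. The targeted gene cpa5, at a log2 fold change of -6.34 ± 1.17, was not called by this fit either. A missing call here therefore does not show a missing change. At an unadjusted p below 0.05 edgeR listed 100 features, while DESeq2 called 19 after adjustment and limma-voom called 0, none of the 19 being among the 5 genes. In all 5 genes the fitted log2 fold change of knockout over sibling lay below 0, as in 52.1% of all features, with a median of -1.41, against -0.01 over all features, although amy2a was at 0.039 when libraries were scaled to total counts. The 2 groups overlapped in every one of the 5 genes: in none were both knockout libraries below both sibling libraries, which was so in 9.01% of all features. In 4 of the 5 genes (cel.1, cel.2, sycn.2 and pdia2) the level in sibling replicate 3 stood above the other 3 libraries. In these bulk libraries fewer acinar cells and less RNA per acinar cell cannot be told apart.

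The lipase gene cel.1 (ENSDARG00000017490) had 339 and 131 counts in knockout replicates 3 and 4, against 1247 and 178 counts in sibling replicates 3 and 4. On the CPM scale these were 13.1 and 3.796 in knockouts, against 48.6 and 5.65 in siblings. Each knockout library lay below the sibling library of the same number, but knockout replicate 3 lay above sibling replicate 4. Means were 8.43 ± 6.56 CPM in knockouts and 27.1 ± 30.4 CPM in siblings (SD, n = 2 each). The log2 fold change was -1.69 ± 1.17 (standard error derived from the edgeR F statistic, 95% interval -4.82 to 1.44). Over all features, 0.176% had a lower fold change than cel.1, yet its interval spans 0.

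Its tandem duplicate cel.2 (ENSDARG00000029822) had 268 and 81 counts in knockout replicates 3 and 4, against 798 and 75 counts in sibling replicates 3 and 4. This gave 10.3 and 2.35 CPM in knockouts, against 31.1 and 2.38 CPM in siblings, so that the replicate 4 libraries were within each other's counting interval. The log2 fold change was -1.41 ± 1.347 (95% interval -5.01 to 2.203). cel.1 and cel.2 are neighbouring genes in the RefSeq annotation of GRCz12tu, used here for gene order only, and the treatment of reads shared by near-identical copies is not stated in the labels or headers. The count ratio of cel.2 to cel.1 was 0.791 and 0.618 in knockout replicates 3 and 4, against 0.640 and 0.421 in sibling replicates 3 and 4, an overlapping pair of ranges (exact two-sided permutation p = 0.667; the smallest p that 2 against 2 libraries allow is 0.333).

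The amylase gene amy2a (ENSDARG00000013856) had 611 and 58 counts in knockout replicates 3 and 4, against 599 and 71 counts in sibling replicates 3 and 4. These counts correspond to 23.6 and 1.68 CPM in knockouts, against 23.4 and 2.25 CPM in siblings. The 2 replicate 3 libraries were within each other's counting intervals of 21.7 to 25.5 CPM in the knockout and 21.5 to 25.3 CPM in the sibling. The log2 fold change was -0.02 ± 1.54, with a 95% interval from -4.15 to 4.10 that leaves room for a fold change as large as that of cel.1. In the ratio of amy2a to cel.1, knockout replicate 3 stood apart from the other 3 libraries: counts of amy2a per count of cel.1 were 1.80 and 0.443 in knockout replicates 3 and 4, against 0.480 and 0.399 in sibling replicates 3 and 4 (exact two-sided permutation p = 0.667).

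The zymogen granule gene sycn.2 (ENSDARG00000103687) was the least read of the 5, with 69 and 9 counts in knockout replicates 3 and 4, against 258 and 11 counts in sibling replicates 3 and 4. Its levels were 2.66 and 0.261 CPM in knockouts, against 10.1 and 0.349 CPM in siblings. At these depths the replicate 4 libraries cannot be told apart, with counting intervals of 0.119 to 0.495 CPM in the knockout and 0.174 to 0.625 CPM in the sibling. The log2 fold change was -1.85 ± 1.74 (95% interval -6.50 to 2.80). The ratio of sycn.2 to cel.1 counts was 0.204 and 0.0687 in knockout replicates 3 and 4, against 0.207 and 0.0618 in sibling replicates 3 and 4. In replicate 3 the pair thus stood in nearly the same proportion in both genotypes. The replicate 4 ratios rest on 9 and 11 counts of sycn.2, too few to show a kept proportion.

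The disulfide isomerase gene pdia2 (ENSDARG00000018263) had 475 and 554 counts in knockout replicates 3 and 4, against 1650 and 531 counts in sibling replicates 3 and 4. This gave 18.3 and 16.05 CPM in knockouts, against 64.3 and 16.9 CPM in siblings. The 2 knockouts and sibling replicate 4 thus lay close together and sibling replicate 3 stood alone above them. Means were 17.2 ± 1.6 CPM in knockouts and 40.6 ± 33.6 CPM in siblings (SD, n = 2 each), with a log2 fold change of -1.24 ± 0.66 (95% interval -3.01 to 0.53). The authors' deposited table marks pdia2 as down, on an unadjusted p of 0.0489 and an adjusted p of 1, and marks none of the other 4 genes. By edgeR its unadjusted p was 0.127, and 0 of the 5 genes were at an unadjusted p below 0.05, which 0.502% of all features were.

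Without sibling replicate 3 the log2 fold changes turned positive in all 5 genes, at 0.57 for cel.1, 1.41 for cel.2, 2.48 for amy2a, 2.03 for sycn.2 and 0.03 for pdia2. There the only sibling left is a replicate 4 library while the knockouts hold both numbers, so genotype and number are not separated. Without knockout replicate 3 the values were -2.83 for cel.1, -2.83 for cel.2, -2.92 for amy2a, -4.29 for sycn.2 and -1.34 for pdia2, again with unbalanced numbers.

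Within a replicate number, 1 library stands against 1 and no test is possible. Between the replicate 3 libraries the log2 CPM of knockout minus sibling was -1.89 for cel.1, -1.58 for cel.2, -1.89 for sycn.2 and -1.81 for pdia2, but 0.01 for amy2a. As CPM ratios, the first 4 genes were at 0.269, 0.332, 0.265 and 0.285 times their sibling level and amy2a was at 1.009 times. Between the replicate 4 libraries the differences were smaller for those 4 genes, at -0.56 for cel.1, -0.02 for cel.2, -0.34 for sycn.2 and -0.07 for pdia2, and amy2a was at -0.41. The median over the 5 genes was -1.81 for replicate 3 and -0.34 for replicate 4, where all features had medians of -0.02 and 0.00. All but amy2a were lower in the knockout within both numbers, which 26.4% of all features were. Between the replicate 4 libraries, however, the counting intervals of cel.2, sycn.2 and pdia2 overlapped, so the sign of their differences there is undecided. For cel.1 they did not overlap, at 3.17 to 4.505 CPM in the knockout and 4.85 to 6.54 CPM in the sibling. Whether the genotype difference itself depends on the replicate number cannot be tested, since 4 libraries leave no residual degree of freedom for that term.

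**Figure D2:**
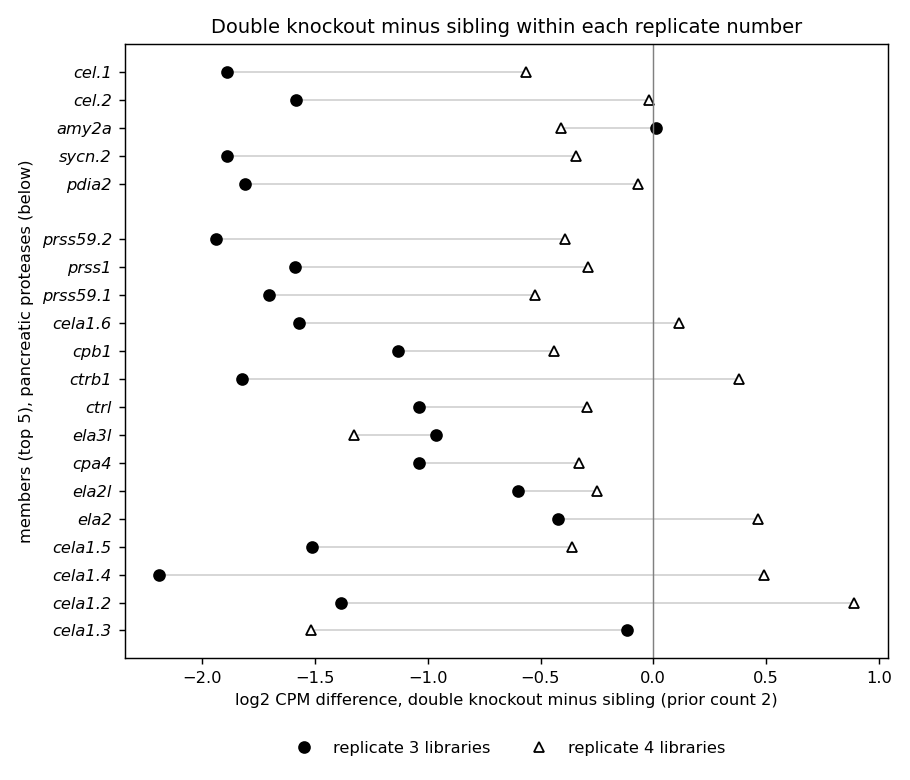
Difference in log2 CPM (prior count 2), knockout minus sibling, between the replicate 3 libraries (filled circles) and the replicate 4 libraries (open triangles), for the 5 genes at the top and 15 pancreatic proteases below. cel.1, cel.2, sycn.2 and pdia2 lie between -1.58 and -1.89 in replicate 3, where amy2a lies at 0.01.

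Between replicate numbers, cel.1, cel.2, amy2a and sycn.2 were lower in the replicate 4 libraries in both genotypes. With a term for genotype, edgeR called 4 of the 5 genes higher in replicate 3 (adjusted p below 0.05), as it did 8.16% of all features, while 6.99% were called higher in replicate 4. DESeq2 called the same 4 genes against 5.89% of all features. amy2a was at 1.68 and 2.25 CPM in replicate 4 of knockouts and siblings, against 23.6 and 23.4 CPM in replicate 3, a log2 difference of -3.58 ± 0.17 (edgeR adjusted p = 0.00272). sycn.2 differed by -4.19 ± 0.41 (adjusted p = 0.0092), cel.2 by -2.94 ± 0.39 (adjusted p = 0.016) and cel.1 by -2.48 ± 0.33 (adjusted p = 0.0157), each lower in replicate 4 within both genotypes. A filter of at least 1 CPM in at least 2 libraries changed no value. sycn.2 reached 1 CPM in the replicate 3 libraries alone. The deposited features thus met that filter as they stood, sycn.2 through the replicate 3 libraries only. The call of sycn.2 is therefore a description. The calls of cel.1 and sycn.2 ended without either sibling or knockout replicate 4 and that of cel.2 without sibling replicate 4, at edgeR adjusted p of 0.053 to 0.109 in fits with the genotype term dropped. The differences there were -3.02 and -2.45 for cel.1, -4.59 and -4.17 for sycn.2 and -3.14 for cel.2.

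pdia2 did not pass, at -1.08 ± 0.42 (edgeR adjusted p = 0.144). Its replicate 4 minus replicate 3 difference was -0.19 in knockouts, against -1.93 in siblings. Without knockout replicate 3 and the genotype term its difference was called, at -1.97 (edgeR adjusted p = 4.51e-05), and without sibling replicate 3 it was -0.16 (adjusted p = 0.402). For the other 4 genes the same differences ran from -1.77 to -3.76 in knockouts and from -3.09 to -4.60 in siblings. For amy2a the value was more negative in knockouts, at -3.76, against -3.33 in siblings. For cel.1, cel.2, sycn.2 and pdia2 it was more negative in siblings. Whether these differences differ between genotypes was not tested for lack of degrees of freedom.

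**Figure D3:**
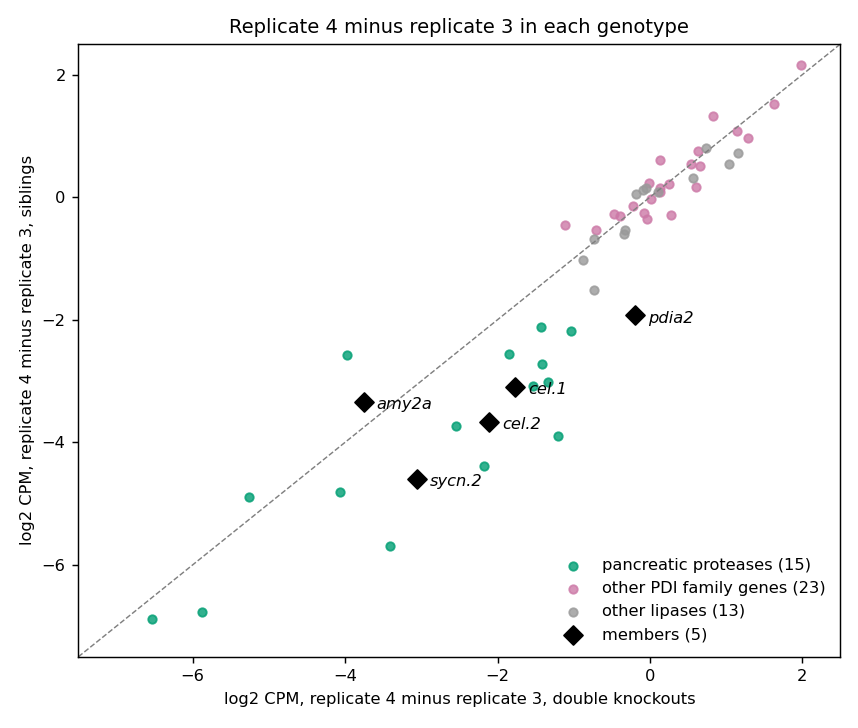
Replicate 4 minus replicate 3 in log2 CPM, in knockouts on the horizontal axis and in siblings on the vertical axis, for the 5 genes (black diamonds) and 15 pancreatic proteases (green). Also shown are 23 genes listed with the protein disulfide isomerase (PDI) family (pink, ero1a and ero1b included) and 13 listed with the other lipases (grey, lipt1 included). The dashed line marks equal differences, with amy2a just above it and the other 4 genes below it, pdia2 at -0.19 and -1.93.

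Markers of some other tissues differed between replicate numbers as well, to be read against the 8.16% of all features called higher in replicate 3 and the 6.99% called higher in replicate 4. Of 13 intestinal epithelium markers, 8 passed the test as higher in replicate 3 and 1 as higher in replicate 4, and the list summed to 1892 and 1711 CPM in knockout replicates 3 and 4, against 2921 and 1992 CPM in sibling replicates 3 and 4. Much of these sums was apoa4b.1, higher in replicate 4, at 551 and 982 CPM in knockouts, against 993 and 1191 CPM in siblings. By contrast anpepb, named after its values were seen, was at 216 and 31.3 CPM in knockouts, against 261 and 18.7 CPM in siblings. Of 19 hepatocyte markers, 12 passed as higher in replicate 4 and 0 as higher in replicate 3, with sums of 11270 and 19950 CPM in knockouts, against 18600 and 26770 CPM in siblings. The apolipoprotein genes apobb.1, apoa2 and apoa1b were the most abundant of this list, at 3346, 2435 and 1925 CPM in knockout replicate 3. Whether hepatocytes alone supplied their RNA was not tested. The markers fabp10a and ttr, named after their values were seen, were not called. Their replicate 4 minus replicate 3 differences were 4.11 and 3.33 in knockouts, against -1.52 and -1.30 in siblings. Knockout minus sibling was -5.695 for fabp10a and -4.085 for ttr between the replicate 3 libraries, where the knockout held 10 and 4 counts. Between the replicate 4 libraries it was -0.08 and 0.55. Of 14 skeletal muscle genes 2 were called higher in replicate 4 and 0 in replicate 3, and of 13 islet cell genes 2 were called in each direction. Skeletal muscle genes summed to 84760 and 93630 CPM in knockouts, against 82620 and 89180 CPM in siblings, and islet cell genes to 80.5 and 107 CPM, against 93.0 and 98.0 CPM. Of 10 heat shock genes 9 were called higher in replicate 4, and of 8 cardiomyocyte genes 6 were. Of those 6, myl7, nppa, tnnt2a and tbx5a reached 1 CPM in the replicate 4 libraries alone, so their calls are descriptions. The most abundant cardiomyocyte gene, myh7, went the other way without a call, at -0.65 (edgeR adjusted p = 0.063). No measured marker of these lists was at 0 counts in all 4 libraries. That was fixed beforehand, since a filter of at least 1 CPM in at least 2 libraries changed no value. It does not show which tissues were present. Between the replicate 3 libraries the hepatocyte list also had a median knockout minus sibling difference of -0.91 and the intestinal list one of -0.51, against -0.42 and 0.06 between the replicate 4 libraries. The islet list had medians of -0.07 and -0.005 in replicates 3 and 4. Its hormone genes, named after their values were seen, were not level in replicate 3. They were at -1.65 for ins, -1.16 for sst1.1, -0.76 for gcgb and -0.65 for gcga, but at 0.52 for sst2. The part of tissue content, heat shock and sampling in the levels of the 5 genes was not tested.

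**Figure D4:**
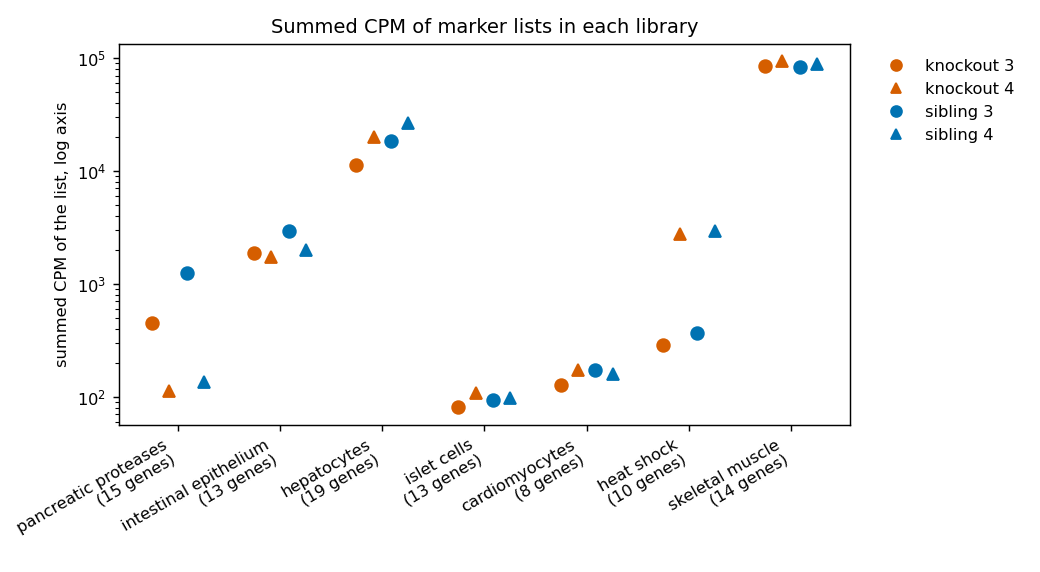
Summed CPM (log axis) of pancreatic proteases, 5 cell type marker lists and heat shock genes in knockout (orange) and sibling (blue) libraries, replicate 3 as circles and replicate 4 as triangles. Protease sums were 448 and 112 CPM in knockouts and 1254 and 136 CPM in siblings, while skeletal muscle sums stayed between 82620 and 93630 CPM.

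Compared per length, on the deposited FPKM (fragments per kilobase, scaled to library size) scale, pdia2 had the highest level of the 5 genes in knockout replicate 4 at 6.66 FPKM, and in sibling replicates 3 and 4 at 28.2 and 6.999 FPKM. In knockout replicate 3 amy2a led at 12.7 FPKM, before pdia2 at 8.46, cel.1 at 6.46, cel.2 at 4.94 and sycn.2 at 3.65 FPKM. In sibling replicate 3 amy2a came last at 11.9 FPKM, below sycn.2 at 12.96, cel.2 at 13.9 and cel.1 at 22.5 FPKM. cel.1 stood above cel.2 in all 4 libraries, and sycn.2 was last in all but sibling replicate 3. As shares of the summed FPKM of the 5 genes, amy2a held 35.1% and 8.12% in knockout replicates 3 and 4, against 13.3% and 9.12% in sibling replicates 3 and 4. pdia2 held 23.4% and 63.5% in knockouts, against 31.5% and 58.1% in siblings, so its share was higher in replicate 4 in both genotypes.

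**Figure D5:**
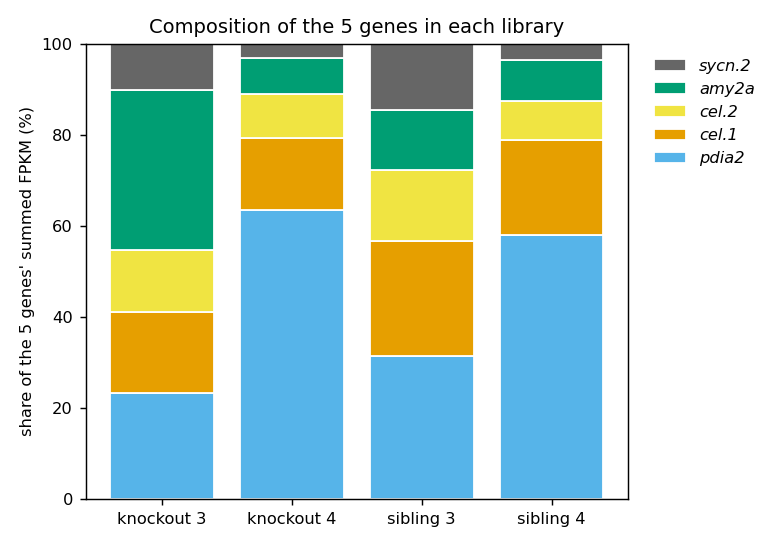
Share of each gene in the summed deposited FPKM of the 5 genes (%), by library, with knockouts left of siblings. pdia2 takes 63.5% and 58.1% in replicate 4 of knockouts and siblings, and amy2a takes 35.1% in knockout replicate 3.

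The summed CPM of the 5 genes was 67.95 and 24.1 in knockout replicates 3 and 4, against 177.5 and 27.5 in sibling replicates 3 and 4. Means were 46.0 ± 31.0 CPM in knockouts and 102.5 ± 106 CPM in siblings (SD, n = 2 each; exact two-sided permutation p = 0.667). The difference between the means is smaller than the SD of the siblings and larger than that of the knockouts.

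The pancreatic proteases, which acinar cells secrete together with the lipases and amylase, had a median log2 fold change of -1.25 over the 15 of 22 listed genes with a row. All 15 lay below 0 (52.1% of all features), 0 passed the adjusted test, and 14 were called higher in replicate 3 (8.16% of all features). The trypsin gene prss59.2 was at 75.6 and 26.2 CPM in knockout replicates 3 and 4, against 290.3 and 34.3 CPM in sibling replicates 3 and 4, a replicate 3 difference of -1.94 like that of cel.1. prss1, coding for another trypsin, had -1.34 ± 1.008 and prss59.1 had -1.59 ± 1.43 as log2 fold changes, and the elastase gene cela1.6 had -1.26 ± 1.07. The elastase genes cela1.3, ela2 and ela2l, named after their values were seen, came nearest to amy2a in the replicate 3 libraries, with knockout minus sibling differences of -0.12, -0.42 and -0.60. cela1.3 was read at 0 to 28 counts per library. ela2 and ela2l had the largest replicate differences of the list, at -6.55 and -7.08 (edgeR adjusted p = 0.00165 and 0.001). ela2, ela2l, cela1.2 and cela1.3, all among the 14 called, reached 1 CPM in the replicate 3 libraries alone, as sycn.2 did. Their calls, and the count of 14 that holds them, are therefore descriptions.

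Of 14 further genes listed as acinar cell products, 6 had a row. Whether each of them, pnp4b and tmed6 included, is secreted or stored in granules was not checked. All 6 had a log2 fold change below 0 (median -0.51) and 0 were called. lipf, annotated as gastric triacylglycerol lipase, was at 53.95 and 90.1 CPM in knockout replicates 3 and 4, against 69.4 and 121.6 CPM in sibling replicates 3 and 4. It was called higher in replicate 4 (log2 difference 0.77, edgeR adjusted p = 0.0137), the opposite of cel.1 and cel.2. The astacin gene c6ast4 (-4.87, adjusted p = 0.00146) and pnp4b (-2.85, adjusted p = 0.00741) were called higher in replicate 3, and spink4 was at -0.83 (adjusted p = 0.309). c6ast4 reached 1 CPM in the replicate 3 libraries alone, so its call is a description.

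Of 19 listed regulators of acinar cells, 13 had a row, with a median log2 fold change of -0.20 (9 below 0, 0 called) and a median replicate difference of 0.26 (2 passed as higher in replicate 4, where 6.99% of all features did, and 0 as higher in replicate 3). xbp1, which drives the secretory protein folding programme, was at 182 and 212 CPM in knockout replicates 3 and 4, against 186 and 228 CPM in sibling replicates 3 and 4. The nuclear receptor gene nr0b2a had a log2 fold change of -0.72 ± 0.40, stxbp2 had 0.07 ± 0.15 and the granule SNARE gene vamp8 had 0.24 ± 0.22. The acinar factors ptf1a, rbpjl and bhlha15 were not analysed here.

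Of 19 genes listed with the other lipases and phospholipases A2, 13 had a row, 10 of them with a log2 fold change below 0 (median -0.15, 0 called). The 13 include lipt1 (-0.12), which codes for a lipoyltransferase and not a lipase. They also include lipf, which is on the list of acinar cell products too. Their median replicate difference was 0.02, with 2 of 13 called in each direction, against 6.99% of all features called higher in replicate 4 and 8.16% called higher in replicate 3. The lysosomal phospholipase gene pla2g15 had a log2 fold change of -0.48 ± 0.42, pla2g12b one of -0.42 ± 0.27 and the monoglyceride lipase gene mgll one of 0.08 ± 0.48. For cel.1 the log2 fold change was -1.69 and the replicate difference -2.48, and the difference between these lists was not tested.

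Of 25 other genes listed with the disulfide isomerase family, 23 had a row, with a median log2 fold change of 0.01 (10 below 0, 0 called) and a median replicate difference of 0.14. The 23 include ero1a and ero1b, which are not members of the family, both below 0. Of the 23, 8 passed as higher in replicate 4 (6.99% of all features), ero1b among them. As higher in replicate 3 (8.16% of all features) 1 passed, txndc5 at -0.62, named after its values were seen. The folding enzyme gene pdia6 was at 103.5 and 408 CPM in knockout replicates 3 and 4, against 96.0 and 427.5 CPM in sibling replicates 3 and 4, a replicate difference of 2.07 ± 0.10 (edgeR adjusted p = 0.00279). pdia3 had 1.11 (adjusted p = 0.00657), while the muscle calcium-store genes casq2 and casq1b, which share the thioredoxin fold, had 0.37 (adjusted p = 0.134) and -0.19 (adjusted p = 0.217). In pdia2 the same difference was -1.08 and did not pass. Between the replicate 3 libraries knockout minus sibling was 0.11 for pdia6 and 0.03 for pdia3, against -1.81 for pdia2.

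Of 23 genes listed with the intestinal uptake of fat and sugar, 17 had a row, with 15 log2 fold changes below 0 (median -0.40, 0 called). Of the 17, 10 passed as higher in replicate 3 (8.16% of all features) and 3 as higher in replicate 4 (6.99%). Not every listed gene acts in uptake, and whether the intestine supplied their RNA was not tested. apobb.1, which codes for the apolipoprotein B of lipid export, had a log2 fold change of -0.51 ± 0.35, apoa4b.1 one of -0.51 ± 0.33, apoa4b.2 one of -0.35 ± 0.46 and fabp1b.1 one of -0.47 ± 0.48. Their replicate differences were 0.67, 0.55, 0.85 and 0.97, opposite in direction to the 10 genes called higher in replicate 3. apobb.1 is also on the hepatocyte list.

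Of 17367 other Ensembl genes with a mean of at least 1 CPM, 8 were named as having the profile nearest to the mean of the 5 genes, by the distance between centred log2 CPM values over the 4 libraries. They were cyp2ad2, pdzd3b, prss59.1, fabp6, leap2, tmem37, rh50 and chia.1, at distances of 0.367 to 0.568. Of these, pdzd3b and rh50 reached 1 CPM in the replicate 3 libraries alone, as sycn.2 did, so their place here is a description. Among the 5 genes themselves cel.2 was nearest to this mean, at 0.255, and pdia2 farthest, at 1.72. prss59.1 is a trypsin gene, fabp6 codes for the bile acid binding protein gastrotropin and chia.1 for an acidic chitinase. fabp6 was at 22.2 and 5.83 CPM in knockout replicates 3 and 4, against 45.8 and 5.30 CPM in sibling replicates 3 and 4. The correlation of log2 CPM over the 4 libraries was 0.998 between cel.2 and sycn.2 and 0.636 between pdia2 and amy2a, given as a description, since the values share 4 libraries and their scaling.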

How the data were processed

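The 4 libraries share 1 table. The submitters' processing notes name HISAT2 2.2.1, DESeq2 1.26.0 and GRCz11. The read counter, annotation and strand setting were not given in the sources used here. It holds raw counts and FPKM for each library, per the file headers. It also holds the authors' own log2 fold changes of mutant over sibling with their p-values. Counts were tested as deposited with edgeR 4.0.16 in R 4.3.3 (quasi-likelihood, TMM scaling, filterByExpr, which removed 0 features), adjusted by Benjamini-Hochberg over all 19924 features at 0.05. The genotype fit had no covariate, and the replicate number fit had a genotype term. CPM are counts scaled with TMM factors, with a prior count of 2 on the log2 scale. 1 count was worth 0.029 to 0.039 CPM. Alternatives used DESeq2 1.42.0 and limma 3.58.1, other scalings and filters, and libraries left out. The tests were tested on simulated data. The simulated genotype comparison held no difference between replicate numbers, so it does not show how that test behaves where there is one. Libraries of a group were not copies (chi-square per degree of freedom 77.7 in knockouts and 90.0 in siblings). All 5 Ensembl identifiers were also present in a gene name table, which calls both lipases CEL and sycn.2 SYCN. Every one of the 5 genes was named, with up to 4 genes of the highest mean CPM per list and the 8 nearest profiles. The genes and lists were chosen with earlier results of these data known.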

Additional observations from a re-analysis of the deposited data

How the results depend on the processing

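For the genotype comparison, 0 features were called under every edgeR scaling and under limma, but DESeq2 called 19. The alternative filters on low counts changed no value, so they could not show any dependence on filtering. With the replicate block edgeR called 3 features and none of the 5 genes, whose adjusted p were 0.863 to 0.977 in that fit. Before adjustment the edgeR p was 0.00965 for cel.1 and 0.0113 for sycn.2 with the block, so 2 of the 5 were below 0.05, as were 4.41% of all features. Deviations from the group means correlated at 0.62 between libraries of the same number, a hint from the data, since the labels do not pair the libraries. Leaving out 1 library moved the median of the 5 genes between -2.83 and 1.41 and the log2 ratio of their summed mean CPM, tried after seeing the data, between -2.09 and 0.74, both positive without sibling replicate 3 only. The ranges were -2.92 to 2.48 for amy2a, -2.83 to 0.57 for cel.1, -2.83 to 1.41 for cel.2, -1.90 to 0.028 for pdia2 and -4.29 to 2.03 for sycn.2, and amy2a was also positive without knockout replicate 4, at 0.89, and with total counts, at 0.039. Under the other alternatives the 5 genes kept direction and stayed uncalled, but the median was -0.93 with limma-voom and -0.84 with limma on log2(FPKM + 1), which gave -1.03 for cel.1, -0.67 for cel.2 and -0.85 for sycn.2. cpa5 was called by DESeq2 alone (-6.33, adjusted p = 1.85e-10). Between replicate numbers 3018 features were called. In fits that drop the genotype term and 1 library, 880 were called without sibling replicate 4, 4867 without sibling replicate 3, 4782 without knockout replicate 3 and 1310 without knockout replicate 4. Depth limits sycn.2 most, at 9 and 11 counts in the replicate 4 libraries.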
